A study of Mus musculus with 14 samples.

Results

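OCP1 is a population of cells sorted from mouse embryonic limbs as CD9+ CD73+ Thy1-, and its 3 arrays were set against the 11 arrays of the 3 other sorted populations. For each of 21734 genes the OCP1 mean of log2 intensity was compared with the mean of the OCP2, OCP3 and OCP4 group means. The genes described are those whose 3 OCP1 arrays all lay above, or all lay below, every other array. This held for 1870 genes (8.6% of all genes), 880 above (4.05%) and 990 below (4.56%).

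The 14 samples were C57BL/6 limb cells at embryonic day 16.5, freed with collagenase and dispase and profiled on Mouse Gene 1.0 ST arrays. Every gate kept cells with the tetraspanin CD9 and split them on 2 further surface proteins, the AMP-hydrolysing enzyme CD73 and the glycoprotein Thy1. The gates gave 3 arrays of OCP1 (CD73+ Thy1-), 3 of OCP2 (CD73- Thy1-), 4 of OCP3 (CD73- Thy1+) and 4 of OCP4 (CD73+ Thy1+). No group carried a transgene or a treatment in the labels. The series calls the cells osteochondroprogenitors, and their potential was not measured on these arrays. Nothing in the labels ties a replicate to its own embryo or litter, so each p-value rests on the scatter of these arrays, and that scatter may be technical.

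In the limb, cartilage forms first and is later replaced by bone. Resting and dividing chondrocytes make a matrix of type II, IX and XI collagens and aggrecan. As they stop dividing they turn prehypertrophic, secrete Indian hedgehog, and then hypertrophic, when they make type X collagen and prepare the matrix for mineral. Cells of the joints, tendons, perichondrium, vessels and nerves lie close by and can enter the same suspension.

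The transcripts of the surface proteins were examined first. Nt5e, which encodes CD73, had log2 intensities of 12.22, 12.17 and 12.47 in the OCP1 arrays, above every OCP2 and OCP3 array and below OCP4 (mean 13.19). Thy1 stood at 9.42, 9.2 and 9.35 in OCP1, near OCP2 (mean 9.6) and far below OCP3 (12.6) and OCP4 (13.22). Both followed the gates. Cd9, shared by all gates, read 11.56, 11.6 and 11.4 in OCP1 against 10.45, 10.99 and 11.15 as the lowest, median and highest of the other arrays. All OCP1 arrays were thus above the rest for Cd9, by 0.63 ± 0.07 log2 units (SE; limma with Benjamini-Hochberg adjustment, adjusted p = 2.74e-05).

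A limma model called 2076 genes higher in OCP1 (9.55% of all genes) and 2697 lower (12.4%) at an adjusted p under 0.05, which is 22.0% in either direction. Taken group by group the calls came to 11% of genes against OCP2 (4.43% higher and 6.56% lower) and 24.4% against OCP3 (11.9% and 12.5%). Against OCP4 they came to 26.3% (12.4% and 13.8%). List counts given side by side below are to be read beside these shares. Of the genes above all other arrays 842 were also called and 38 were not, and of those below 951 were called and 39 were not. The range rule and the model use the same arrays, so neither count supports the other. The genes above differed by a median of 0.4 log2 units, with 111 at least 2-fold and 12 at least 4-fold higher. The genes below differed by a median of -0.29, with 75 at least 2-fold and 4 at least 4-fold lower. The split between directions depends on scaling. With arrays centred on the medians of the genes tested, 1125 genes lay above and 647 below all others and limma called 2379 higher and 2238 lower. With arrays centred on the medians of all probe sets it went the other way, with 756 above and 1121 below, and 1807 called higher and 2921 lower. Beside each count of 0 called genes in a list below, against the mean of the other groups, the count at an unadjusted p under 0.05 was also 0 unless another is given. At the edge of the rule the lowest OCP1 array exceeded the highest other array by 4.38e-05 log2 units for Gm4881, 0.000112 for Appbp2 and 0.000228 for A4galt, while the gap was -0.00014 for Wnk3-ps, -0.000252 for Slc35c2 and -0.000291 for Dpp7. On the lower side the gaps were 0.000127 for Ppp1r3d, 0.000163 for Ppp1cc and 0.000166 for Plin2 inside, and -3.86e-07 for Tubb5, -5.3e-05 for Cox6c and -7.83e-05 for Th1l outside.

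**Figure D1:**
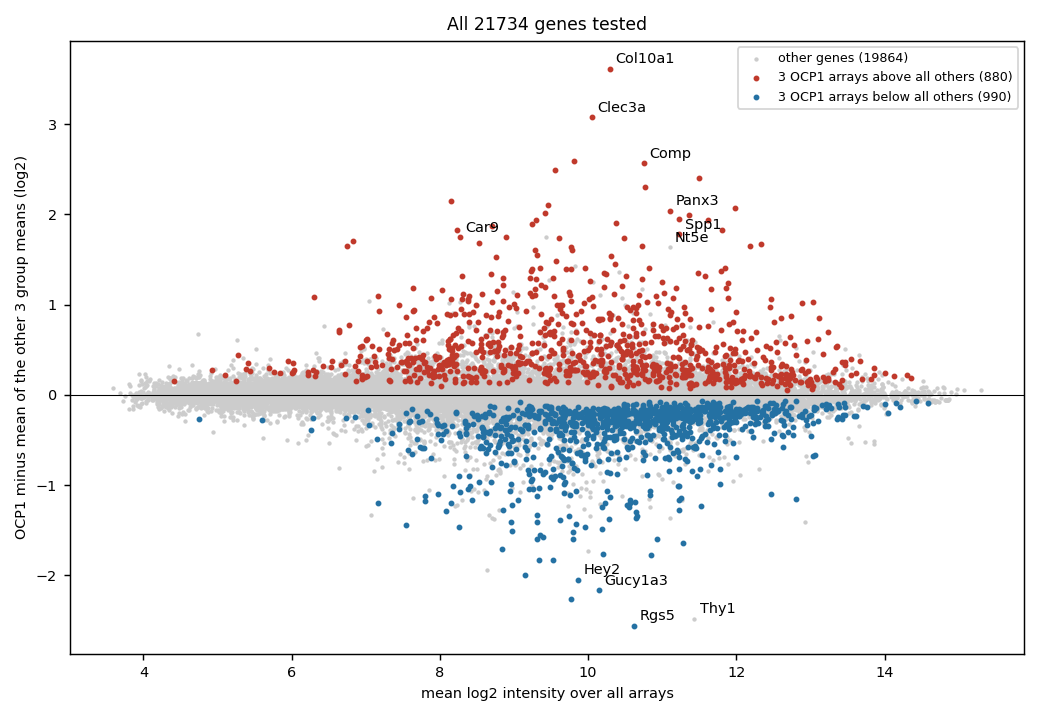
Difference between the OCP1 mean and the mean of the 3 other group means (log2) against mean log2 intensity over the 14 arrays, 1 point per gene. Red points are the 880 genes whose OCP1 arrays lie above all others, blue points the 990 below, and grey points the rest; Col10a1 lies highest at 3.61 and Rgs5 lowest at -2.56.

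The nearest of the other populations was usually OCP2. Among the 880 genes above, OCP2 had the nearest mean for 582 (66.1%), OCP4 for 192 and OCP3 for 106. Among those at least 2-fold higher it was nearest for 94 of 111. Among the 990 genes below, OCP2 was again nearest most often, for 532 (53.7%), with OCP4 for 271 and OCP3 for 187. Only the 75 genes at least 2-fold lower differed. For these OCP4 was nearest for 39, OCP2 for 29 and OCP3 for 7, and OCP3 was farthest for 51. These counts describe the genes the rule picked, and no test of the difference was made. The nearest group was not counted over all genes, so the counts do not set the picked genes apart. Over all genes limma calls were also fewest against OCP2 (11%, with 24.4% against OCP3 and 26.3% against OCP4).

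Hypertrophic cartilage genes stood out in OCP1. Of 12 measured, 7 were called higher and 0 lower, and 5 lay above all other arrays, with a median difference of 0.74 log2 units where all genes had a median of 0.001. Col10a1, which encodes type X collagen of hypertrophic cartilage, read 12.83, 13.18 and 13.36 in OCP1 and 7.41, 9.46 and 11.28 (lowest, median and highest) in the other arrays. The OCP1 arrays were clear of the highest OCP4 array by 1.55 log2 units, the widest gap of any gene above the others. Its difference of 3.61 ± 0.27 log2 units (SE), or 12.2-fold, was the largest called (adjusted p = 4.22e-07), and it came to 3.65 against OCP2, 4.8 against OCP3 and 2.4 against OCP4.

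Panx3, a pannexin channel made as chondrocytes enlarge and by osteoblasts, read 12.6, 12.68 and 12.82 in OCP1 and 10.06, 10.7 and 11.21 in the others. OCP1 stood 1.38 log2 units clear, and the remaining groups lay close together with means of 10.43 (OCP2), 11.02 (OCP3) and 10.52 (OCP4). Panx3 was 4.11-fold higher (2.04 ± 0.13, SE; adjusted p = 1.32e-07). Ihh, the Indian hedgehog ligand of prehypertrophic chondrocytes, had 10.41, 10.42 and 10.56 in OCP1 against 8.67, 9.07 and 9.37. It too was separated by over 1 log2 unit (gap 1.05), a 2.64-fold difference. Foxa3, a forkhead factor of hypertrophic chondrocytes, was higher by 1.82 log2 units and Prkg2, the cGMP-dependent kinase needed for hypertrophy, by 1.22. A dimmer probe set of Prkg2 gave 0.66.

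Other hypertrophic genes did not single out OCP1. Mmp13, a collagenase that clears cartilage matrix before bone forms, was called higher against the mean of the others (1.36 log2 units, adjusted p = 4.46e-06), but OCP1 (11.53, 11.25 and 11.33) overlapped OCP3, whose mean was 11.43. Runx2 (0.04, adjusted p = 0.786), Mef2c (-0.11, adjusted p = 0.205) and Pth1r, the receptor for PTHrP (0.02, adjusted p = 0.747), did not pass. For Runx2 and Mef2c the highest mean was that of OCP3 (11.62 and 11.9), and for Pth1r that of OCP4 (12.62), against 11, 11.36 and 11.68 in OCP1.

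**Figure D2:**
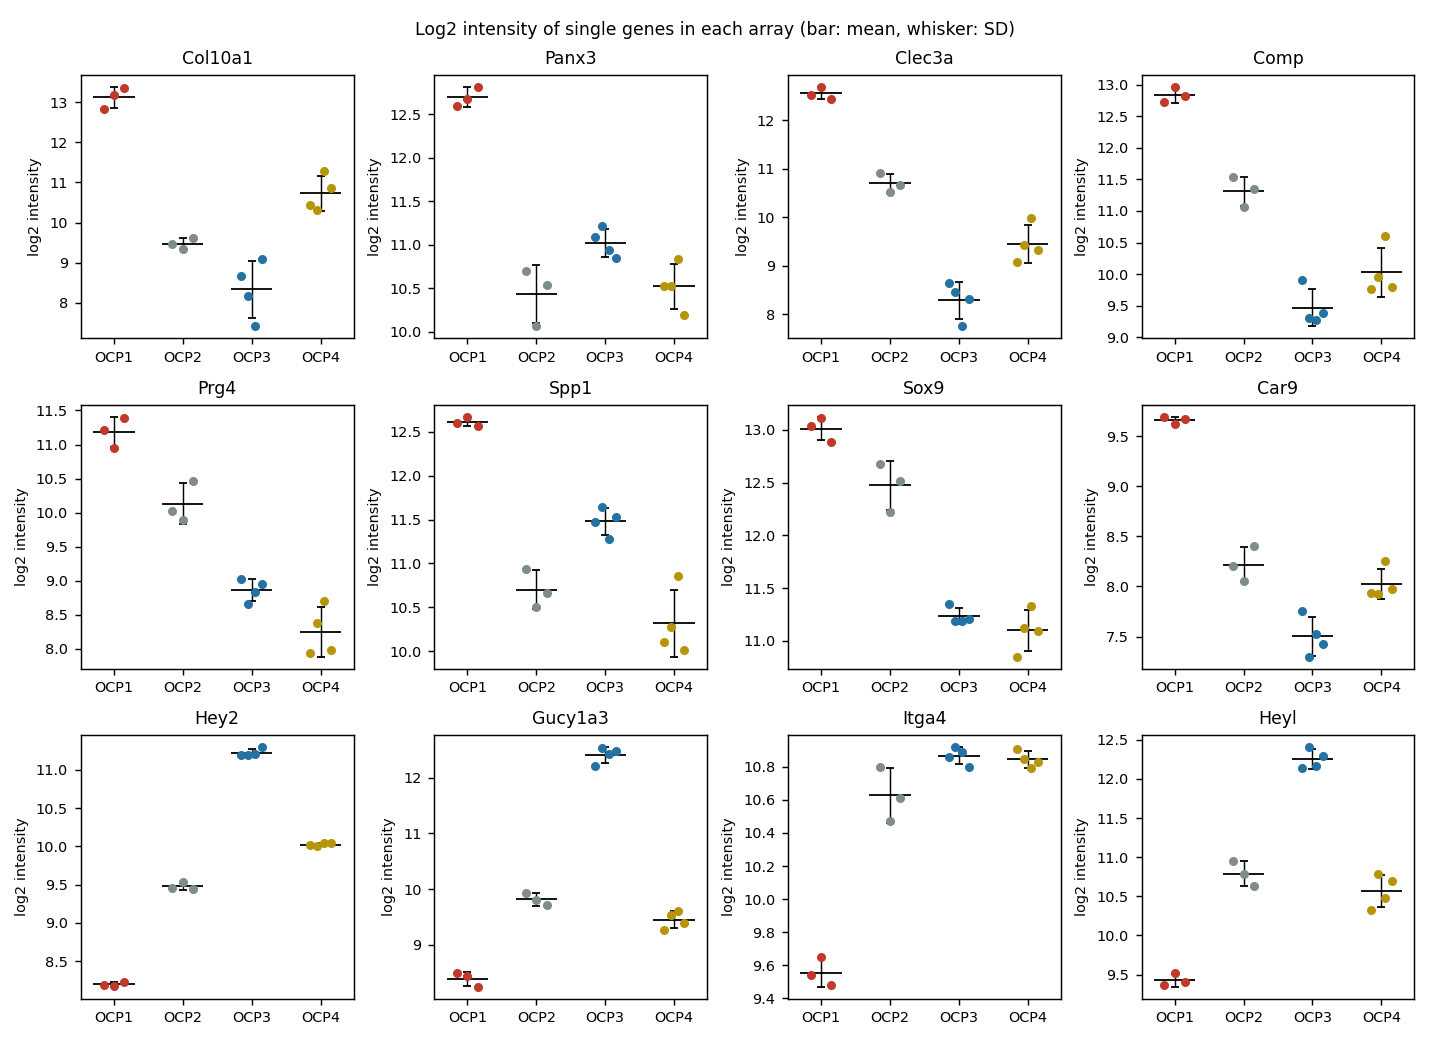
Log2 intensity in each array for 12 genes, 1 panel per gene with its own axis; points are arrays, bars group means and whiskers SD. In the first 8 panels the 3 OCP1 points lie above all 11 others, and in the last 4 (Hey2, Gucy1a3, Itga4 and Heyl) they lie below.

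Promoter windows are shown for 4 of the genes that carry these differences, as the letters around the start sites of a hypertrophic, a cartilage, a mineral and a Notch-related gene. They are RefSeq windows of 250 bases before to 50 after the annotated start (GRCm38.p6), written 5′ to 3′ on the gene's strand: Col10a1 at chr10:34389731-34390030 (plus), Matn1 at chr4:130944135-130944434 (plus), Spp1 at chr5:104434861-104435160 (plus) and Hey2 at chr10:30842734-30843033 (minus). Capitals mark TGTGGT, a core bound by RUNX factors, in Matn1 and Spp1, and TGGGAA, a core bound by RBPJ, the DNA-binding partner of Notch, in Hey2, each on either strand.
Col10a1: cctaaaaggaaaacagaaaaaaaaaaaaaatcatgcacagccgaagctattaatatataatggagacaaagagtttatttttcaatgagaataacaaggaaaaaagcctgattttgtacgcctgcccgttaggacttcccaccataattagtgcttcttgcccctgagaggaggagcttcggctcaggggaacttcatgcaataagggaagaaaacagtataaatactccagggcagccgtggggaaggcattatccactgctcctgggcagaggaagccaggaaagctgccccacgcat
Matn1: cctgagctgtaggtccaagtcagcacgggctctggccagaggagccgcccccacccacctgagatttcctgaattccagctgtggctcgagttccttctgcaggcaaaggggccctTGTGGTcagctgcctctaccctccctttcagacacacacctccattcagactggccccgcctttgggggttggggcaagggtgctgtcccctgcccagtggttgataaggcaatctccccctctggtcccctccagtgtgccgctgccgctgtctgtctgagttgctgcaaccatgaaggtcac
Spp1: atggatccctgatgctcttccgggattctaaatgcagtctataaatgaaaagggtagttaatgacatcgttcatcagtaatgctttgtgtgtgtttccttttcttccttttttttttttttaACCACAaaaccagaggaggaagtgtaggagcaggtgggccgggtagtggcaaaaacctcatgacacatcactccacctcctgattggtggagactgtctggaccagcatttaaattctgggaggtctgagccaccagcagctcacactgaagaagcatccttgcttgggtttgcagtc
Hey2: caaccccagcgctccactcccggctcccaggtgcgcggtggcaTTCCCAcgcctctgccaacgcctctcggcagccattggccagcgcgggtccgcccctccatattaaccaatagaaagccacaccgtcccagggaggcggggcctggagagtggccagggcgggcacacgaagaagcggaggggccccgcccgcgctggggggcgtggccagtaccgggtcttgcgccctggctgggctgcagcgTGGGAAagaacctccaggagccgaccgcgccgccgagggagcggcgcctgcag

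The Col10a1 window held no TGTGGT and no ACAATG, a core bound by SOX factors, and it held 1 TGGGAA, which is not in capitals. The window of Nrarp, a Notch-related gene named later, held 0 TGGGAA. The match in Matn1 begins at -134 and that in Spp1 at -128 from the start site, and the first of those in Hey2 at -207. Another annotated start of Spp1 has a window at chr5:104435942-104436241 (plus), not printed, which held 0 TGTGGT and 0 ACAATG. Over 19688 promoter windows of 16073 genes tested, 14.2% held TGTGGT, 10.2% ACAATG and 24% TGGGAA. Among genes at least 2-fold above all other arrays the shares were 13.5%, 7.29% and 18.8% of 96 windows, and among genes below all others 13.2%, 8.46% and 25% of 969 windows. No share of TGTGGT or ACAATG in these groups was above that of all genes. The TGGGAA search was chosen after the values were seen. A match describes letters, not a bound site.

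Genes of mineral deposition were also high in OCP1. Of 15 measured, 10 were called higher and 0 lower, and 7 (with Enpp6, 0.43) lay above all other arrays, with a median of 0.62. Spp1, which encodes osteopontin, read 12.6, 12.67 and 12.57 in OCP1 and 10.02, 10.86 and 11.64 in the others, a 3.43-fold difference (1.78 ± 0.14, SE; adjusted p = 6.79e-07). Its OCP1 values varied by 0.1 log2 units at most, and OCP3 came nearest (mean 11.48). Smpd3, a sphingomyelinase needed for skeletal mineralization, was 3.33-fold higher and Phospho1, the phosphatase of matrix vesicles, 2.62-fold. Enpp1, which makes the mineral inhibitor pyrophosphate, was 2.58-fold higher (12.91 in OCP1, 10.83 in OCP4). Ibsp, bone sialoprotein, rose by 1.06 log2 units and Dmp1, a matrix protein of osteocytes, by 0.95. For 4 of the 7 genes the nearest group was OCP3. Mgp, an inhibitor of cartilage calcification (0.75), and Phex, a protease of phosphate balance (0.62), were called higher but overlapped other arrays. OCP2 had the highest Phex mean, 10.87 against 10.32 in OCP1.

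Osteoblast genes as a list did not separate OCP1 so clearly. Of 20 genes 9 were called higher and 1, Dlx6 (-0.37; 0 without OCP1 replicate 2 or 3), lower, with a median of 0.12, and 5 lay above all others. Those were Spp1, Smpd3, Ibsp and Dmp1, which the mineral list also holds, and Atf4, a transcription factor of osteoblasts and of the stress response (0.19). The osteoblast factor Sp7 (0.22 ± 0.09, SE; adjusted p = 0.0907) and the alkaline phosphatase gene Alpl (-0.04 ± 0.1, SE; adjusted p = 0.848) did not pass. Sp7 passed with array weights (adjusted p = 0.0372) and without OCP4 replicate 3 (0.0416). OCP3 held the highest means of both, 10.58 and 12.93, against 9.85 and 11.6 in OCP1. Side by side, 13 of 20 were called higher and 0 lower against OCP2 (4.43% and 6.56% of all genes), 8 higher and 8 lower against OCP3 (11.9% and 12.5%), and 10 higher and 1 lower against OCP4 (12.4% and 13.8%). These comparisons share the OCP1 arrays.

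Cartilage matrix genes were the most uniform group. All 23 measured were called higher in OCP1, and 21 lay above all other arrays, with a median difference of 1.83 log2 units. The remaining 2, Matn4 (1.27) and Chadl (0.92), overlapped OCP2. Clec3a, a cartilage C-type lectin, read 12.53, 12.7 and 12.45 in OCP1 and 7.75, 9.32 and 10.91 in the others. Its OCP1 arrays were 1.54 log2 units clear, and the difference was 8.43-fold (3.08 ± 0.18, SE; adjusted p = 5.2e-08). Comp, cartilage oligomeric matrix protein, had 12.72, 12.97 and 12.82 against 9.27, 9.91 and 11.53. OCP2 was again next, at a mean of 11.31, and the difference was 5.92-fold. The matrilin Matn1, of which the window is printed above, read 13.38, 13.8 and 13.32 against 9.12, 10.55 and 12.78, with the OCP2 mean at 12.73.

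Epyc, which encodes the small proteoglycan epiphycan, was 6.04-fold higher, although a dimmer probe set gave only 0.25 log2 units against 2.59 and overlapped. Scrg1, a secreted protein of chondrocytes, was 5.63-fold and the matrilin Matn3 4.94-fold higher. Lect1, the older name of Cnmd (chondromodulin, an inhibitor of vessel growth), was 4.2-fold higher. The cartilage proteoglycan Snorc, listed as 3110079O15Rik, was 4.05-fold higher with a gap of 1.24. Ucma, a vitamin K-dependent protein of the growth plate, and Col9a1, a chain of type IX collagen, were 3.97-fold and 3.87-fold higher. The link protein gene Hapln1 (1.94), the main cartilage collagen gene Col2a1 (1.65), the aggrecan gene Acan (1.67) and Prelp (0.59) were above all others too. Outside the lists, Scin, an actin-severing protein, was 4.43-fold and Fam180a 3.84-fold higher.

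OCP2 stood between OCP1 and the Thy1+ populations for this matrix. It was nearest for 20 of the 21 genes above all others. Side by side, 17 of the 23 were called higher against OCP2, with a median of 0.81, and all 23 against OCP3 (median 2.55) and against OCP4 (2.18). The mean of the list, each gene centred on the mean of its group means, lay between 1.22 and 1.48 in the OCP1 arrays, 0.27 and 0.61 in OCP2, -1.23 and -0.74 in OCP3, and -1.03 and -0.33 in OCP4. The highest OCP4 value was that of replicate 3, apart from the others of its group (-1.03 to -0.78).

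**Figure D3:**
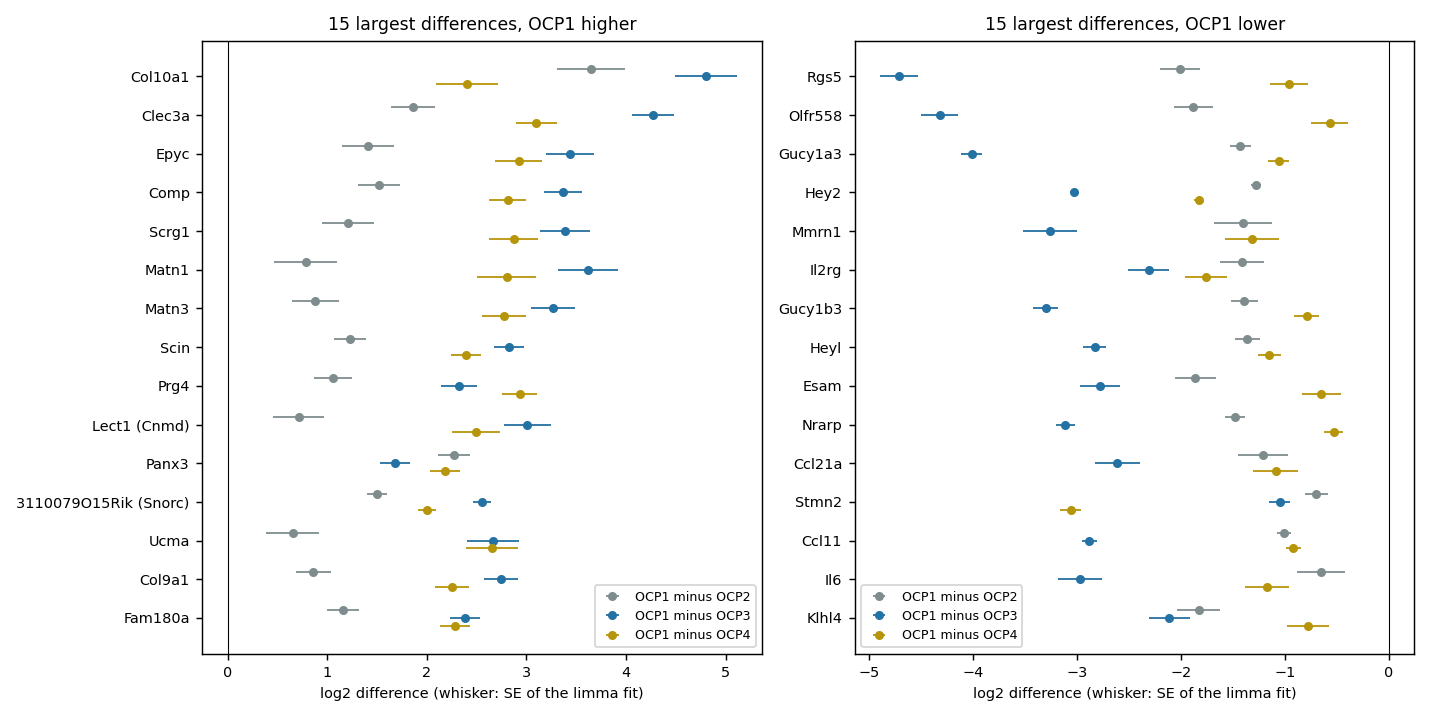
Log2 differences of OCP1 from OCP2 (grey), OCP3 (blue) and OCP4 (yellow) for the 15 genes with the largest differences in each direction; whiskers are standard errors of the limma fit. Most cartilage genes on the left lie closest to OCP2, and most genes on the right lie farthest below OCP3; the comparisons share the OCP1 arrays.

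The transcription factors of chondrocytes followed with smaller differences. Of 9 genes 6 were called higher and 1, Arid5a (-0.26; 0 without OCP1 replicate 2 or 3), lower, with 5 above all others and a median of 0.46. Sox9, the master factor of cartilage, read 13.04, 13.11 and 12.89 in OCP1 against 10.85, 11.21 and 12.68. The OCP1 arrays cleared OCP2 by only 0.21, while OCP3 (mean 11.24) and OCP4 (11.1) lay far lower, and the difference was 2.66-fold (adjusted p = 2.22e-07). Its partner Sox6 rose by 0.98 and Nkx3-2, a repressor of early hypertrophy, by 0.56. Trps1, a zinc finger factor of the growth plate, rose by 0.46, with 0.36 and overlapping arrays at its other probe set. Barx2 rose by 0.25 and lost its call without OCP1 replicate 1 (adjusted p = 0.0773). Sox5 was called higher (1.24) but overlapped OCP2.

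The microRNA gene Mir140, which lies in the cartilage-expressed gene Wwp2, was looked up after its values were seen. Its probe set read 8.08, 8.42 and 8.23 in OCP1 against 5.78, 6.12 and 7.99 in the others, and Wwp2, a ubiquitin ligase gene, read 12, 12.02 and 11.83 against 10.14, 10.71 and 11.54. OCP1 was above all others for both, by 1.7 and 1.13 log2 units. Mir140 is dim. Its median of 6.12 in the other arrays lies below the cut for dim genes (7.12). The odorant receptor genes that set this cut had a median of 5.72, so its difference rests partly on weak signal. The probe set reads RNA of the locus and not the mature product. The mature 3p sequence, the arm listed in the table used, is shown as a product of the locus, with the seed (bases 2 to 8) in capitals, from RefSeq at chr8:107551288-107551308, plus strand, GRCm38.p6.
mmu-miR-140-3p: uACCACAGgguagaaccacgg

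Enzymes that build and sulfate cartilage glycosaminoglycans were higher as well. Of 16 genes 10 were called higher and 0 lower (1 lower at an unadjusted p under 0.05), 8 lay above all others and the median was 0.22. Chst11, the chondroitin 4-sulfotransferase, read 12.1, 11.95 and 11.66 in OCP1 against 9.47, 9.91 and 11.19, a 3.33-fold difference (adjusted p = 6.43e-07). Its OCP1 arrays were all above OCP2, the next group. Xylt1, which starts the chains, was 2.26-fold higher and Csgalnact1, which starts chondroitin, 2.16-fold. Papss2, which makes the sulfate donor, was 1.97-fold, the nucleotide sugar carrier Slc35d1 1.83-fold and the sulfate transporter Slc26a2 1.78-fold higher.

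Collagen crosslinking and hydroxylation enzymes rose in 13 of 15 cases and fell in 0 (median 0.27), with 8 above all others. By group, 13 were higher and 0 lower against OCP2 (median 0.3) and against OCP3 (0.47), but 7 and 1 against OCP4 (0.13). OCP4 was nearest for 4 of the 8 above, and OCP2 for the other 4. Loxl4, a lysyl oxidase-like enzyme, read 11, 10.95 and 11.08 in OCP1 against 8.54, 8.92 and 10.77. Here OCP4 was next (mean 10.74), and OCP2 (8.85) and OCP3 (8.61) lay over 2 log2 units below OCP1. Its other probe set differed by 1.68 but overlapped. Loxl3 was higher by 0.88, Leprel1 (the older name of the prolyl hydroxylase P3h2) by 0.81 with 0.2 at a dimmer probe set, the lysyl hydroxylase Plod2 by 0.7, and the prolyl hydroxylases P4ha3 and P4ha1 by 0.65 and 0.32.

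Joint and tendon genes were higher in OCP1 too. Of 14 joint interzone and articular genes 11 were called higher and 1, Cd44 (-0.21; 0 with any OCP1 array left out), lower (median 0.6), and 6 lay above all others. Prg4, which encodes the lubricant lubricin, read 11.22, 10.95 and 11.39 in OCP1 against 7.94, 8.84 and 10.47. OCP2 came next (mean 10.13), and the difference was 4.3-fold (adjusted p = 3.85e-07). Gdf5, the growth factor of the joint interzone, read 9.76, 9.87 and 10.03 against 7.74, 8.04 and 8.82, 3.2-fold higher and clear by 0.94. Its dimmer probe set gave 0.7 log2 units, also above all others. The ETS factor Erg (0.84), the Wnt-binding Sfrp2 (0.69), the homeobox factor Barx1 (0.69) and autotaxin, Enpp2 (0.61), completed the 6, and Erg cleared OCP4 by 0.00379 only.

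Of 11 tendon and ligament genes 10 were called higher and 0 lower (median 0.65), with 5 above all others. Tnmd, tenomodulin, read 13.78, 13.87 and 13.86 against 12.32, 12.91 and 13.7. OCP1 and OCP2 lay close for it (gap 0.0879). The proteoglycan Kera was 2.36-fold, the tendon factor Mkx 2.31-fold, the proteoglycan Fmod 2.04-fold and the collagen Col14a1 1.3-fold higher. Side by side, 6 were higher and 2 lower against OCP2 (Cilp and Angptl7 lower; median 0.36), 8 and 0 against OCP3 (0.88), and 11 and 0 against OCP4 (1.25). Scx, the tendon lineage factor, was called higher (0.73) but was highest in OCP2, 11.57 against 11.4. Fibrous connective tissue genes were mixed, with 4 of 17 higher and 4 lower and a median of 0.01. Col12a1 (0.22), Postn (0.19) and Col14a1 were above all others and Dpt (0.3) was called higher. The lower ones were Pi16 (-0.79), Twist2 (-0.3) and the limb mesenchyme factors Prrx2 (-0.24) and Prrx1 (-0.22). The Postn call was lost without OCP1 replicate 1 (adjusted p = 0.0631).

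**Figure D4:**
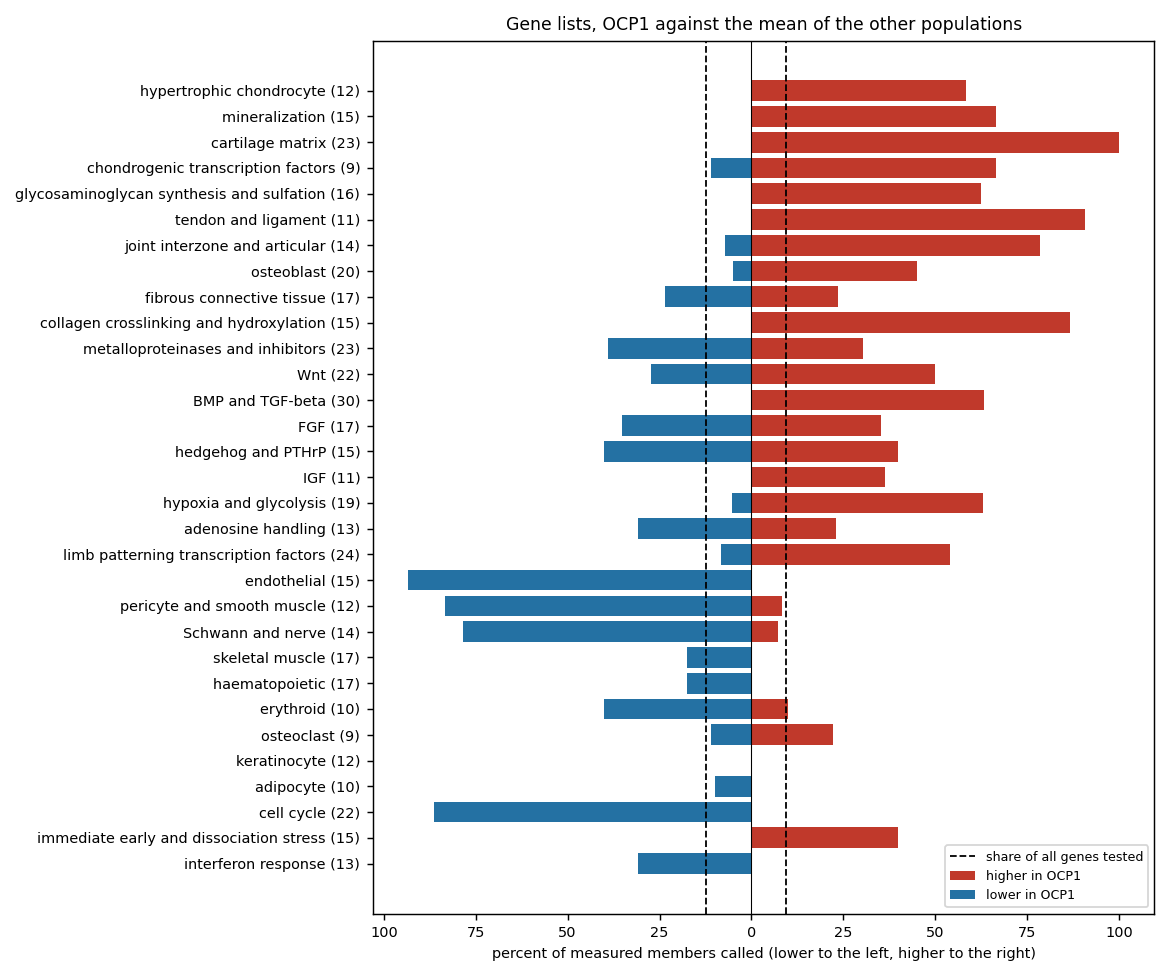
Percent of measured members of each gene list called lower (blue, to the left) or higher (red, to the right) in OCP1, with the number measured in brackets. Dashed lines mark the shares of all genes, 12.4% lower and 9.55% higher; cartilage matrix reaches 23 of 23 higher and the endothelial list 14 of 15 lower.

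Signalling genes differed by pathway member. In the hedgehog and PTHrP list 6 of 15 were called higher and 6 lower, with 4 above all other arrays and a median of 0.09. The ligand Ihh (1.4) and the co-receptors Cdon (0.53), Boc (0.44) and Gas1 (0.28) were those above. Among genes that hedgehog signalling induces, Gli1 (-0.39) and Ptch1 (-0.26) were called lower but stood 0.09 and 0.37 above the OCP2 mean in OCP1. Hhip (-0.35), Gli2 (-0.17) and Sufu (-0.14) were called lower as well, and Smo (0.16) and Gli3 (0.15) higher. The count of lower calls was 2 without OCP1 replicate 2, and Ptch1 lost its call without that array (adjusted p = 0.0655) and without replicate 3 (0.109).

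Genes of the FGF list were 6 higher and 6 lower of 17, with 5 above and 3 below all others and a median of 0.05. Fgfr3, the receptor that restrains chondrocyte growth, read 11.63, 11.66 and 11.31 against 9.58, 10 and 10.82, a 2.72-fold difference. Among ligands Fgf9 was 1.85-fold, Fgf18 1.65-fold and Fgf2 1.47-fold higher, and the decoy-like receptor Fgfrl1 1.69-fold. Dusp6, a phosphatase induced by FGF signalling, read 10.92, 11.06 and 11.08 against 11.5, 11.66 and 11.84, so it was lowest in OCP1 (-0.67, adjusted p = 8.87e-07). The feedback inhibitors Spry1 (-0.47) and Spry2 (-0.22) were also below all others. Spry4 (-0.5) and the ETS factors Etv4 (-0.33) and Etv1 (-0.15), likewise induced by FGF signalling, completed the 6 lower calls, and Fgf10 (0.42) the higher ones. Etv5, another ETS factor induced by FGF signalling, did not pass (-0.03, adjusted p = 0.804).

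Among Wnt genes secreted inhibitors went both ways, with the largest higher and the largest lower differences. Of 22 measured, 11 were called higher and 6 lower (median 0.15), with 7 above and 1 below all others. Sfrp4 was 2.53-fold, Dkk3 2.27-fold, Frzb 2.2-fold and Dkk2 1.93-fold higher, all genes of Wnt antagonists or their relatives, and the receptor Lgr5 1.8-fold. Dkk3 read 12.21, 12.13 and 12.06 in OCP1 against 10.49, 11.07 and 11.21, and its 3 other group means lay between 10.67 and 11.1. The lower calls were Sfrp5 (-0.86) and Dkk1 (-0.7), also genes of secreted antagonists, and Tcf7 (-0.66), Rspo3 (-0.65), Nkd2 (-0.63) and Lef1 (-0.28). Nkd2, an inhibitor of Wnt signalling, was the gene below all others, and Tcf7 and Lef1 are transcription factors of the pathway. Side by side, 14 were higher and 0 lower against OCP2, 10 and 4 against OCP3, and 9 and 12 against OCP4.

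BMP and TGF-beta genes were called higher in 19 of 30 cases and lower in 0 (2 at an unadjusted p under 0.05; median 0.23), and 9 lay above all others. Bmp6 and Bmp2, ligands of hypertrophic cartilage, rose by 0.85 and 0.79, Gdf10 by 0.76, Tgfb3 by 0.55, the BMP-induced Id1 by 0.56 and the antagonist Chrd by 0.49. The count fell to 12 without OCP1 replicate 1. By group, 10 of the 30 were higher and 0 lower against OCP2, 18 and 1 against OCP3, and 17 and 4 against OCP4. Among 11 IGF genes 4 were higher and 0 lower (1 lower at an unadjusted p under 0.05; median 0.08). The binding protein genes Igfbp2 (0.67) and Igfbp4 (0.36) were above all others, and Igfbp7 (0.51) and Igf1 (0.31) were called higher. Most higher IGF calls were against OCP4, with 8 higher and 0 lower there (median 0.39). They were 2 and 0 against OCP2 (0.01) and 2 and 2 against OCP3 (0.02).

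Metalloproteinases and inhibitors went both ways, 7 of 23 higher and 9 lower with a median of 0.03. Adamts6 (0.67), Mmp2 (0.24), Timp2 (0.2), Mmp16 (0.18) and Mmp14 (0.18) lay above all others, and the aggrecanase Adamts4 below (-0.69). With all probe sets kept the lower calls came to 5. Mmp16 lost its call when any OCP1 array was left out (adjusted p 0.0508 to 0.0683).

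Hypoxia and glycolysis genes were called higher in 12 of 19 cases and lower in 1 (median 0.17), with 8 above all others. The lower gene was Egln3, an oxygen-sensing prolyl hydroxylase (-0.47), below all others. The 6 not called were Adm (-0.2), Ankrd37 (-0.14), Aldoa (0.11), Pfkfb4 (-0.09), Egln1 (-0.07) and Ndrg1 (0.02). Group by group, 6 were higher and 2 lower against OCP2 (median 0.09), 11 and 2 against OCP3 (0.2), and 13 and 4 against OCP4 (0.32). Car9, a carbonic anhydrase induced by low oxygen, read 9.69, 9.62 and 9.67 in OCP1 against 7.3, 7.94 and 8.4. It was clear of every other array by 1.22 log2 units and 3.35-fold higher (adjusted p = 2.38e-08). Car12 was 2.92-fold and Bnip3, a mitophagy receptor, 2.15-fold higher, and Pdk1, Hk2 and Higd1a rose by 0.54, 0.5 and 0.5. Higd1a lost its call without OCP1 replicate 3 (adjusted p = 0.0543), and its other probe set overlapped.

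Limb patterning factors were called higher in 13 of 24 cases and lower in 2 (median 0.28), with 7 above and 1 below all others. Group by group, 5 were higher and 2 lower against OCP2 (median 0.12), 13 and 2 against OCP3 (0.27), and 16 and 3 against OCP4 (0.4). OCP2 was nearest for 6 of the 7 above. The hindlimb factors Pitx1 and Tbx4 rose by 1.12 and 1.09, the forelimb factor Tbx5 by 0.51, and Hoxa11 and Hoxa10 by 0.79 and 0.58. Since both limb identities were higher, the values do not single out a limb. Alx4 was below all others (-0.61), and Tbx2 was called lower (-0.52).

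Of 13 genes of adenosine handling, 3 were called higher and 4 lower (median -0.1). Besides Nt5e, Entpd3 lay above all others (0.58), and Entpd1, the surface enzyme CD39 that makes AMP from ATP, below. Entpd1 read 9.37, 9.71 and 9.26 in OCP1 against 9.71, 10.67 and 11.2, a difference of -1.07 with a gap of 0.000753 to OCP3. Entpd2 (-0.62) and the adenosine receptor genes Adora2a (-0.52) and Adora2b (-0.33) were called lower, and the transporter gene Slc29a1 higher (0.24).

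Genes of vessel walls fell in OCP1. Of 15 endothelial genes 14 were called lower and 0 higher, and 11 lay below all other arrays, with a median of -1.06. Cdh5, the cadherin of endothelial junctions, read 10.56, 10.83 and 10.41 in OCP1 against 11.11, 11.61 and 12.87. OCP2 was highest (mean 12.51) and OCP4 nearest (11.31), and the difference was -1.23 ± 0.13 (SE; adjusted p = 8.7e-06). The junction protein Esam was 3.39-fold, the receptor Cd93 2.58-fold, the factor Sox18 2.37-fold, the receptor Tie1 2.15-fold and Pecam1 2.12-fold lower. Emcn fell by 1.24 log2 units but overlapped OCP4, and Tek (-0.09, adjusted p = 0.743) did not pass. In these bulk samples fewer cells of a type and less RNA per cell cannot be told apart.

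Pericyte and smooth muscle genes were called lower in 10 of 12 cases and higher in 1 (median -0.99), with 3 below and 1 above all others. Rgs5, a pericyte regulator of G protein signalling, read 8.74, 8.53 and 8.45 in OCP1 against 9.04, 10.6 and 13.44. OCP3 was far highest (mean 13.28), and the difference of -2.56 ± 0.15 (SE) was the largest on the lower side, a level 5.88-fold lower (adjusted p = 5.76e-08). Notch3, the receptor of mural cells, was 2.24-fold lower. The contractile genes Acta2 (-1.41), Myh11 (-1.27) and Tagln (-1.09) were called lower but overlapped OCP4. For them OCP1 replicate 2 stood higher than the other OCP1 arrays, at 12.75 against 11.34 and 11.39 for Acta2 and at 9.95 against 8.56 and 8.3 for Myh11. Cspg4, a proteoglycan of pericytes that chondrocytes also make, was the gene above all others (0.49).

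The largest lower differences included further genes with their highest level in OCP3. Gucy1a3, which encodes part of the soluble guanylate cyclase that senses nitric oxide, read 8.49, 8.44 and 8.25 in OCP1 against 9.27, 9.81 and 12.53, and its partner Gucy1b3 read 7.98, 8.21 and 7.98 against 8.66, 9.41 and 11.56. Both were lowest in OCP1, by 4.49-fold and 3.54-fold, and for both OCP4 was nearest. The odorant receptor gene Olfr558 was 4.78-fold, Mmrn1, a multimerin of vessels and platelets, 3.98-fold, and Klhl4 2.97-fold lower.

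Hey2, a repressor induced by Notch, read 8.19, 8.17 and 8.23 in OCP1 against 9.45, 10.04 and 11.3. It had the widest gap on the lower side, 1.22 log2 units, and differed from every group by over 1 unit (-1.28 from OCP2, -3.03 from OCP3 and -1.83 from OCP4). The difference from their mean was -2.05 ± 0.04 (SE; adjusted p = 4.54e-13). Heyl, of the same family, read 9.36, 9.52 and 9.4 against 10.33, 10.78 and 12.41, and Nrarp, a feedback inhibitor of Notch, 7.67, 7.39 and 7.41 against 7.94, 8.97 and 10.86. These were lower by 3.43-fold and 3.26-fold. These genes are named for their size or gap and not from a list of Notch genes, and Hey1, Notch1 and Jag1 were looked up after the values were seen. Hey1 was below all others (-1.19), while Notch1 (-0.72) and the ligand Jag1 (-0.67) were called lower and overlapped OCP4.

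Among the other genes with wide gaps or large lower differences, Itga4, the integrin chain that binds VCAM1, read 9.54, 9.65 and 9.48 in OCP1 against 10.47, 10.83 and 10.92, a narrow range in all 3 other groups. It was 2.34-fold lower (adjusted p = 1.21e-08) with a gap of 0.82. The chemokine Ccl11 read 9.52, 9.78 and 9.59 against 10.49, 10.66 and 12.62, 3.03-fold lower. Il2rg, a cytokine receptor chain, was 3.56-fold, Fgl2 2.84-fold, the cytokine Il6 3.02-fold and Ccl21a 3.11-fold lower. Ccl21a rests on 4 probe sets with identical values, and near copies of the gene cannot be told apart. Ccl2, looked up after its values were seen, differed by -1.52. Stmn2, a neuronal microtubule protein, was 3.04-fold lower and highest in OCP4 (mean 11.53).

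**Figure D5:**
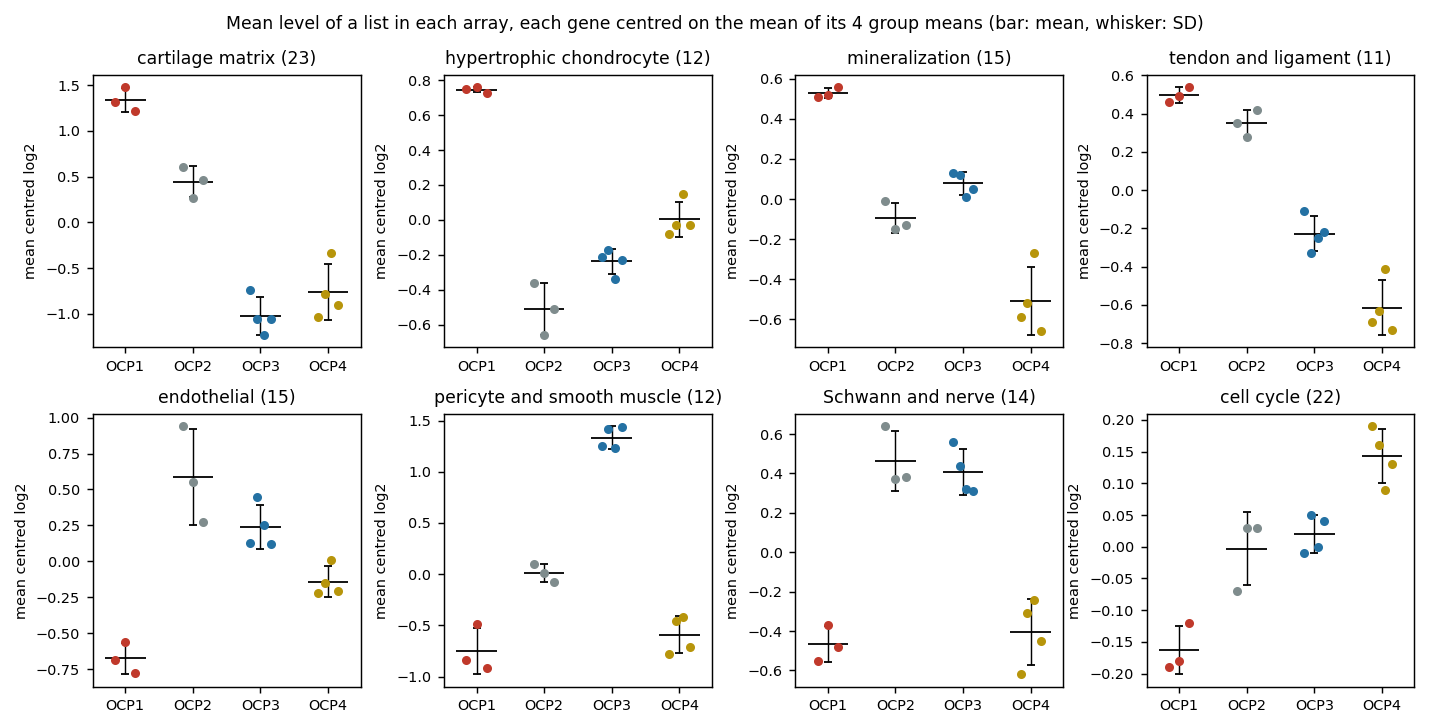
Mean level of 8 gene lists in each array, each gene centred on the mean of its 4 group means (log2); points are arrays, bars group means and whiskers SD. OCP1 lies highest for the cartilage, hypertrophic, mineral and tendon lists and lowest for the endothelial and cell cycle lists, and it overlaps OCP4 for the pericyte and Schwann lists.

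Schwann and nerve genes were called lower in 11 of 14 cases and higher in 1 (median -0.82). The factor Sox2 read 7.65, 7.63 and 7.69 in OCP1 against 7.75, 8.17 and 9.97 in the others. Its OCP1 arrays were lowest of all and OCP4 was highest (mean 9.62), a 1.86-fold difference (adjusted p = 8.27e-05). Sox10, a factor of Schwann cells, was called lower (-0.52) and overlapped OCP4. S100b, which chondrocytes also make, was above all others (0.74). Side by side, 10 were lower against OCP2, 9 against OCP3 and 1 against OCP4.

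The other lists of foreign cell types moved less. Skeletal muscle genes were lower in 3 of 17 (Chrna1 -0.5, Myh3 -0.44 and Pax3 -0.43; 1 without OCP1 replicate 1), with 11 lower against OCP2, 1 against OCP3 and 1 against OCP4. Haematopoietic genes were lower in 3 of 17 (Lyz2 -0.58, Emr1 -0.39 and Aif1 -0.18), with 8 lower against OCP4, and Ptprc, the common leukocyte antigen, did not pass (-0.09, adjusted p = 0.427). Erythroid genes were lower in 4 of 10 (among them Hba-a1 -0.52, Alas2 -0.5 and Epor -0.17) and higher in 1 (Rhd 0.24; 0 without OCP1 replicate 1 or 2). Osteoclast genes were lower in 1 of 9 (Tnfrsf11a, -0.5, below all others) and higher in 2 (Ctsk 0.34 and Acp5 0.19; 1 without OCP1 replicate 3), and adipocyte genes lower in 1 of 10 (Cd36 -0.86). Of 12 keratinocyte genes limma called 0, with 2 lower at an unadjusted p under 0.05, and Krt5 stood at -0.66 (adjusted p = 0.101). Without OCP2 replicate 3 the keratinocyte list had 2 lower calls, Krt5 among them (-0.77, adjusted p = 0.0368), and without OCP3 replicate 4 it had 1. Without OCP1 replicate 1 or 3 the calls of Chrna1, Lyz2 and Hba-a1 were lost (adjusted p up to 0.16), as were all lower erythroid calls without replicate 1 and all lower haematopoietic calls without replicate 3.

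The endothelial, pericyte and Schwann levels were low in OCP1, where the cartilage level was highest. The levels of the other groups are set beside these as values only. OCP2, next in cartilage level (0.27 to 0.61), had endothelial levels from 0.27 to 0.94. OCP3, with cartilage levels from -1.23 to -0.74, had pericyte levels from 1.23 to 1.44. OCP4, with cartilage levels from -1.03 to -0.33, had pericyte levels from -0.78 to -0.42. The list means of OCP1 ran from -0.78 to -0.56 for endothelial genes where other arrays spanned -0.22 to 0.94. For pericyte genes they ran from -0.92 to -0.49 (others -0.78 to 1.44) and for Schwann genes from -0.55 to -0.37 (others -0.62 to 0.64). Their part in the cartilage, joint and tendon results was not tested.

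Cell cycle genes were slightly but widely lower in OCP1. Of 22 measured, 19 were called lower and 0 higher, 8 lay below all others and the median was -0.21. Ccnb1, the mitotic cyclin, read 12.08, 12.21 and 12.17 in OCP1 against 12.37, 12.52 and 12.66, 1.27-fold lower (adjusted p = 0.000129). Birc5, Plk1, Tyms, Cenpa and Mki67 fell by 0.34, 0.29, 0.29, 0.24 and 0.24. Side by side, 6 were lower against OCP2, 11 against OCP3 and 20 against OCP4. The count was 8 without OCP1 replicate 1.

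Of 15 genes of the immediate early response, which tissue dissociation can induce, 6 were higher and 0 lower (median 0.14), with Ier3 (0.47) and Fosb (0.4) above all others. The count was 3 without OCP1 replicate 1, and the part of dissociation in the other results was not tested. Klf4 (0.36), Socs3 (0.28), Dusp1 (0.28) and Fos (0.23) were the other higher calls. Of 13 interferon response genes 4 were lower and 0 higher (median -0.12), among them Ifit2 (-0.75), Ifit3 (-0.48) and Oasl2 (-0.39), and 0 lay below all others.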

How the data were processed

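RNA of 14 sorted samples was hybridised to Affymetrix Mouse Gene 1.0 ST arrays. The submitters' processing notes list RMA, which corrects background, normalizes by quantiles and summarises probes, together with limma. For neither is a version given in the sources used here. In the deposited table each array has 1 linear intensity per probe set, and log2 was taken here, although the design allowed for log2 values. Array medians lay between 328.1 and 346.8. The authors' deposited comparison table, which holds log2 differences and adjusted p-values, was used for gene symbols. Its probe numbers were checked to be row positions, and its signed columns run as OCP4 minus the other group.

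Of 35556 probe sets, 25254 carried a symbol, 26 of them turned into dates and treated as unnamed. They gave 21734 genes, 18706 under a current symbol, 2263 found by synonym and 765 unmatched. The probe set with the highest mean stood for each gene. Pearson correlations over genes were 0.9973 to 0.9978 between OCP1 arrays and 0.9851 to 0.9945 between OCP1 and other arrays. No copy of an array was found.

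Group means were estimated over the 14 arrays with limma 3.58.1 in R 4.3.3 (10 residual degrees of freedom, eBayes, Benjamini-Hochberg over all genes, threshold 0.05), after a check on simulated data. Differences are log2 with SE. The number of arrays limits the precision, and no batch is given in the sources used here. Members and the 31 gene lists were chosen with earlier results of these data known. Named genes are, in each direction, the 15 largest called differences among genes outside the range, the 5 widest gaps, up to 6 genes outside the range per list (or the largest difference of a list with none), the sort and cell type markers, and 3 genes on each side of the rule's edge. Mir140, Wwp2, Hey1, Notch1, Jag1, Ccl2 and list members beyond this rule were named after their values were seen. Alternatives covered scaling, an offset, a filter on dim genes, probe set choice, array weights, the variance prior, a replicate block and each array left out. Some genes that the rule selects are not reported here.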

Additional observations from a re-analysis of the deposited data

Results flagged for a closer look

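Among 182 genes with 2 groups of 4 arrays each, 20 groups held an array whose distance to the nearest of the others exceeded the 95% limit of Dixon's test. Chance alone gives about 1 in 20 groups, and 364 groups were examined. None of these arrays is an OCP1 array, since groups of 3 were not examined.

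In OCP3, replicate 1 was high for Epyc (9.03 against 8.25 to 8.34) and Sox9 (11.35 against 11.19 to 11.21) and low for Barx1 (9.64 against 9.86 to 9.88) and Plin2 (11.3 against 11.37 to 11.38). Replicate 2 of OCP3 was high for Gas1 (12.53 against 12.43 to 12.44) and Entpd1 (10.07 against 9.71 to 9.75) and low for Cd9 (10.85 against 11.01 to 11.03). Replicate 3 was low for Foxa3 (6.95 against 7.34 to 7.38) and high for Id1 (11.77 against 11.35 to 11.4), and replicate 4 was high for Hoxa10 (10.69 against 10.45 to 10.48).

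In OCP4, replicate 3 was high for Epyc (9.69 against 8.69 to 8.85), Car9 (8.25 against 7.93 to 7.98) and Csgalnact1 (9.51 against 9.2 to 9.22). Replicate 1 of OCP4 was low for Leprel1 (11.51 against 11.65 to 11.66), P4ha3 (12.08 against 12.3 to 12.35) and Jag1 (10.6 against 11 to 11.06). Replicate 2 was low for Dmp1 (7.54 against 7.91 to 7.96) and high for Ccl2 (10.55 against 9.88 to 9.99). Replicate 4 was high for Col14a1 (13.74 against 13.65 to 13.66) and low for Gli1 (11.43 against 11.57 to 11.58).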

How the results depend on the processing

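Alternatives were run gene by gene for 182 genes, those of the naming rule and some looked up later, and for other list members only through list counts. Of the 171 called by limma among the 182, 159 kept their call and sign in each of the 25 alternatives that included them, and 0 turned sign. Mir140, among the 159, was in 24 of the alternatives, since the filter on dim genes left it out. Of the 12 that lost the call in some setting, 8 are Barx2, Postn, Mmp16, Higd1a, Chrna1, Lyz2, Hba-a1 and Ptch1, and the others (Ppp1r3d, Ppp1cc, Tubb5 and Th1l) lie at the edge of the range rule. Genes that did not pass and changed sign were Runx2 (-0.04 with each other array given equal weight), Pth1r (-0.03 so, and -0.01 to 0.04 with single arrays left out), Alpl (0.0 with array weights, and -0.07 to 0.0 with single arrays left out) and Tek (-0.16 to 0.03 with single arrays left out). Calls were gained in some settings by Gm4881, Wnk3-ps, Krt5 and Sp7. The lower call of Cd44 in the joint list was also lost with the tested-gene medians, with quantile normalization run again, with all probe sets and without single arrays of each other group. The cause was not tested.

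Leaving out single arrays gave 3017 to 5005 genes called against the other populations (4773 with all), 1477 to 2516 against OCP2 (2388), 3969 to 5587 against OCP3 (5309), 4371 to 5901 against OCP4 (5706), and 1918 to 2795 genes outside the range (1870). The lowest call counts came without OCP1 replicate 1, and against OCP2 the count was 1486 without OCP2 replicate 2. Centring on the medians of the genes tested, an alternative chosen after seeing the data, gave 1531 higher and 976 lower against OCP2 (963 and 1425 as deposited), and 1125 above and 647 below all other arrays. For same-numbered arrays of different groups, deviations from the group means gave mixed correlations (19 from -0.419 to 0.395, 8 above 0.1). These values do not settle whether the numbers pair the samples. With the replicate block 4288 genes were called against the other populations, 2153 against OCP2, 4761 against OCP3 and 5265 against OCP4. Dim genes rest on weaker signal over background.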

Other observations

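Among 10328 probe sets without a usable gene symbol, 53 had all OCP1 arrays above all others (0.513%) and 53 below (0.513%), against 4.05% and 4.56% of the named genes. The median SD between replicates over all genes was 0.077 log2 units in OCP1, 0.09 in OCP2, 0.101 in OCP3 and 0.088 in OCP4.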
